A study of Sus scrofa with 2 samples.

Results

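Cell cycle genes and genes of immature neurons were examined in the hippocampus of Rongchang piglets (Sus scrofa), in 1 control sample and 1 iron dextran sample (iron bound to a sugar polymer, used against iron deficiency in young pigs). The members are 40 genes named by symbol, 28 of proliferation and 12 of immature neurons, and the 2 groups were read apart. The gene table identifies genes by Ensembl pig ID, and 20 of the 40 members had an ID paired with their symbol, among 25322 IDs in all. These were 14 proliferation genes and 6 immature neuron genes. Both samples carry the labels of wild-type animals of the Rongchang breed at the piglet stage, and in these labels they differ by the agent alone. The sources used here do not state the dose, route, age, sex or number of animals. Each label lists 2 names without saying whether these were animals, libraries or runs, and each sample has 1 value per gene.

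A dividing cell passes through a fixed order of steps. Cyclins switch on cyclin-dependent kinases (CDKs), the MCM complex opens DNA for replication, and kinases such as PLK1 and AURKB drive mitosis, while inhibitors of the CDKs hold cells in arrest. In the hippocampus after birth, the dentate gyrus is the site where neural progenitors go on dividing. Their daughters pass through a neuroblast stage, with transcription factors such as NEUROD1 and SOX11 and the microtubule protein DCX, before they become granule neurons. Precursors of oligodendrocytes and microglia also divide in young brain, so transcripts of the cell cycle do not mark 1 lineage in bulk tissue.

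The authors deposited FPKM values, in which fragment counts are divided by transcript length and by the library's mapped fragments. Differences are those of log2(FPKM + 1) with control subtracted from iron dextran, a scale that understates the change of low genes. A gene counts as measured where its mean FPKM reaches 1, and as higher or lower where this difference reaches 1.5-fold. Each group has 1 sample, so replicate spread is unknown and nothing was tested. Every value below describes these 2 samples. The number of fragments is unknown, and low values rest on few of them. FPKM summed to 924070 in control and to 850165 in iron dextran. Scaling the columns to the same total adds about 0.12 to every difference of a well-expressed gene and moves the median of all measured genes from -0.0046 to 0.10.

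No measured member was 1.5-fold higher or lower in iron dextran. Of the 14 proliferation genes with an ID, 12 were measured, and of the 6 immature neuron genes all 6 were. The count past 1.5-fold was 0 of 12 for proliferation and 0 of 6 for immature neurons. Over all 12557 measured genes the share was 3.94%, with 2.47% higher and 1.47% lower. Members and lists can hold only genes with a symbol, and of the 8403 such measured genes 105 were higher and 54 lower. This is a smaller share than over all genes, so a count of 0 among 18 is near the background. The proliferation genes had a median difference of 0.04, with 7 above 0 and 5 below. The immature neuron genes had a median of -0.04, with 2 above 0 and 4 below. Among all measured genes 49.0% lay above 0, the median was -0.0046 and the quartiles were -0.12 and 0.14. The quartiles shifted with level, from -0.11 and 0.21 at a mean FPKM from 1 to 10 to -0.13 and 0.06 from 10 up. All measured proliferation genes except RRM1 lay in the lower band. With the columns scaled to the same total, the median of all measured genes was itself 0.10. Beside it, the medians were 0.14 for proliferation, with 9 of 12 above 0, and 0.07 for immature neurons, with 5 of 6 above 0. The share of all genes above 0 was not computed under this scaling.

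**Figure D1:**
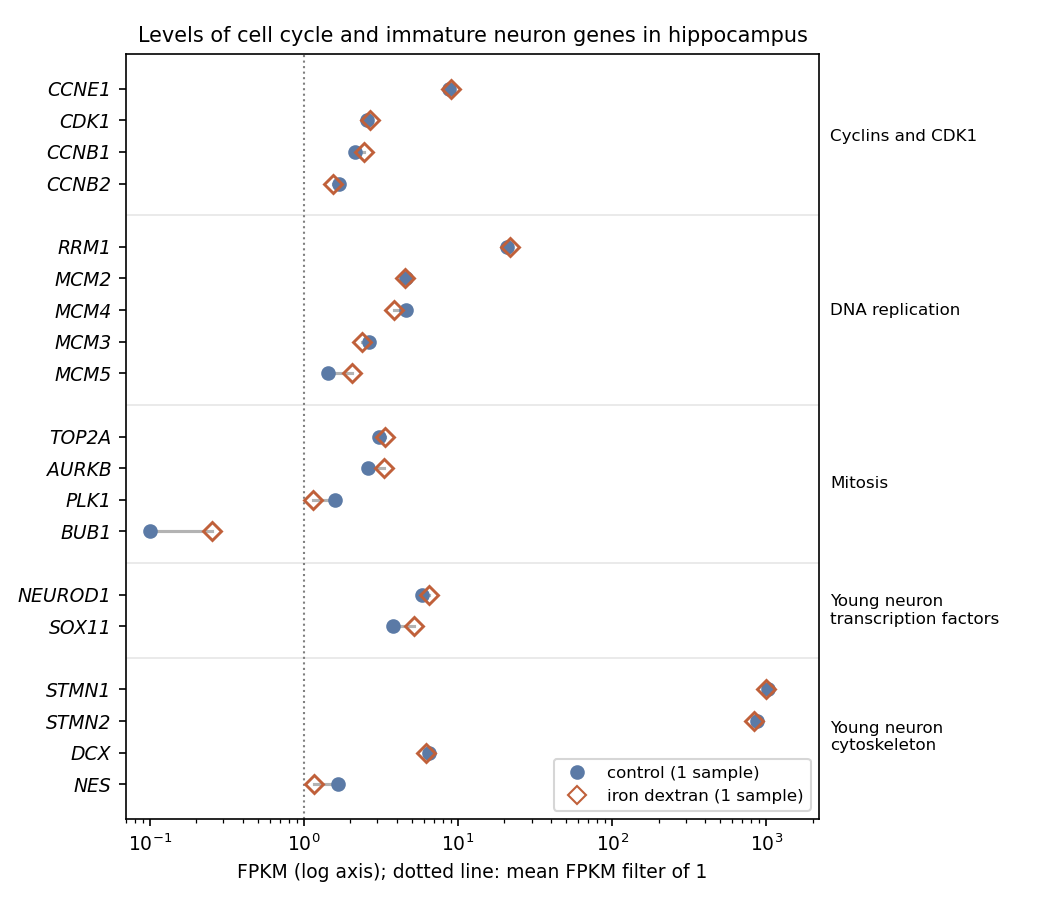
FPKM on a log axis of the 19 members above 0, with control as filled circles and iron dextran as open diamonds, 1 sample each. STMN1 and STMN2 sit between 835 and 1019, most others lie between 1 and 22, and the 2 symbols of BUB1, below the dotted line at 1, stand farthest apart.

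The cyclins and their kinase were close in the 2 samples. CDK1 (ENSSSCG00000010214), the kinase that drives entry into mitosis, had 2.58 FPKM in control against 2.69 in iron dextran, an iron dextran to control ratio of 1.04. CCNB1, the cyclin B1 that activates CDK1, had 2.16 and 2.47 FPKM, a ratio of 1.14. CCNB2, its relative cyclin B2, had 1.68 and 1.55 FPKM, a ratio of 0.924. CDK1 and CCNB1 lay above 0 and CCNB2 below, though CCNB2 came to 0.0041 with the same column total, and none reached 1.5-fold. CCNE1, cyclin E1 of the step from G1 into S phase, had 8.79 and 9.04 FPKM. In FPKM, which is per length, CCNE1 was 3.41 times CDK1 in control and 3.36 times in iron dextran.

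For DNA replication, 4 of the 6 subunits of the MCM helicase could be read. MCM2 had 4.62 FPKM in control against 4.54 in iron dextran (ratio 0.983). MCM3 had 2.64 and 2.37 FPKM, a ratio of 0.898. MCM4 had 4.61 and 3.82 FPKM, a ratio of 0.828. The differences of these 3 subunits were below 0, none reached 1.5-fold, and that of MCM2 turned above 0 (0.08) with the same column total. MCM5 was above 0, also by less than 1.5-fold, with 1.43 and 2.06 FPKM, a ratio of 1.44 and a difference of 0.33. This was the highest ratio among the measured members. As a result the level of MCM2 was 3.24 times that of MCM5 in control and 2.21 times in iron dextran. Summed over these subunits, FPKM was 13.3 in control and 12.8 in iron dextran. RRM1, the large subunit of ribonucleotide reductase, which makes deoxynucleotides, had 20.8 and 21.7 FPKM. It was the highest proliferation gene in both samples, with a level 8.05 times that of CDK1 in control and 8.06 times in iron dextran.

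Among mitosis genes, 2 kinases lay on opposite sides of 0 on the difference scale. AURKB, the kinase of the chromosomal passenger complex, had 2.60 FPKM in control against 3.31 in iron dextran (ratio 1.27). PLK1, polo-like kinase 1, had 1.58 and 1.14 FPKM, a ratio of 0.717. AURKB was therefore 1.64 times PLK1 in control and 2.91 times in iron dextran. TOP2A, the topoisomerase that untangles replicated chromosomes, had 3.07 and 3.33 FPKM, a ratio of 1.09. BUB1, a kinase of the spindle checkpoint, was below the limit of measurement used here, with 0.0997 FPKM in control against 0.255 in iron dextran. Its ratio of 2.55 comes from values this low, and its difference on the log2(FPKM + 1) scale was 0.19. With a pseudocount of 0.01 and no limit on low values, an alternative chosen after the data were seen, BUB1 was the 1 member past 1.5-fold, where 22.5% of 17452 genes were.

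Of the CDK inhibitors, CDKN1A, which encodes p21, was listed at 0 in both samples. Since genes without a usable estimate can also appear as 0, this is not read as absence. CDKN1B and CDKN1C had no ID paired with their symbol. The same held for the cyclins CCNA2, CCND1, CCND2 and CCND3, for MCM6, MCM7, PCNA, RRM2 and TYMS of DNA replication, and for MKI67, BIRC5 and AURKA of mitosis. These genes were not analysed here. The set therefore lacks the cyclin D family and MKI67, the most used marker of dividing cells.

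The 2 transcription factors of young neurons were above 0 on the difference scale and the 4 cytoskeletal genes below it, but with the same column total DCX, STMN1 and STMN2 turned above 0, to 0.05, 0.09 and 0.06. SOX11 (ENSSSCG00000008649), a factor of newly born neurons, had 3.78 FPKM in control against 5.16 in iron dextran (ratio 1.36, difference 0.37). NEUROD1, which drives neuronal differentiation in the dentate gyrus, had 5.85 and 6.50 FPKM, a ratio of 1.11. DCX (ENSSSCG00000012585), doublecortin, which binds microtubules in migrating neuroblasts, had 6.48 and 6.20 FPKM, a ratio of 0.957. None of these 3 genes reached 1.5-fold.

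STMN1 and STMN2 encode stathmins, which bind tubulin and destabilise microtubules. STMN1 had 1019 FPKM in control against 996 in iron dextran (ratio 0.978). STMN2 had 871 and 835 FPKM, a ratio of 0.959. Both stood far above DCX, since STMN1 was 157 times DCX in control and 161 times in iron dextran. The level of STMN1 exceeded that of 99.4% of measured genes in both samples, while DCX exceeded 40.5% in control and 38.7% in iron dextran. Stathmins are also made by mature neurons. NES, nestin, the intermediate filament of neural progenitors that vessel cells also make, had 1.67 and 1.17 FPKM, a ratio of 0.7002 and a difference of -0.30. It was the lowest of the 6 by level in both samples. SOX2, EOMES, SOX4, NEUROD2, NEUROD6 and DPYSL3 had no ID paired with their symbol and were not analysed here, so neither transcription factor of progenitors among the members was read.

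**Figure D2:**
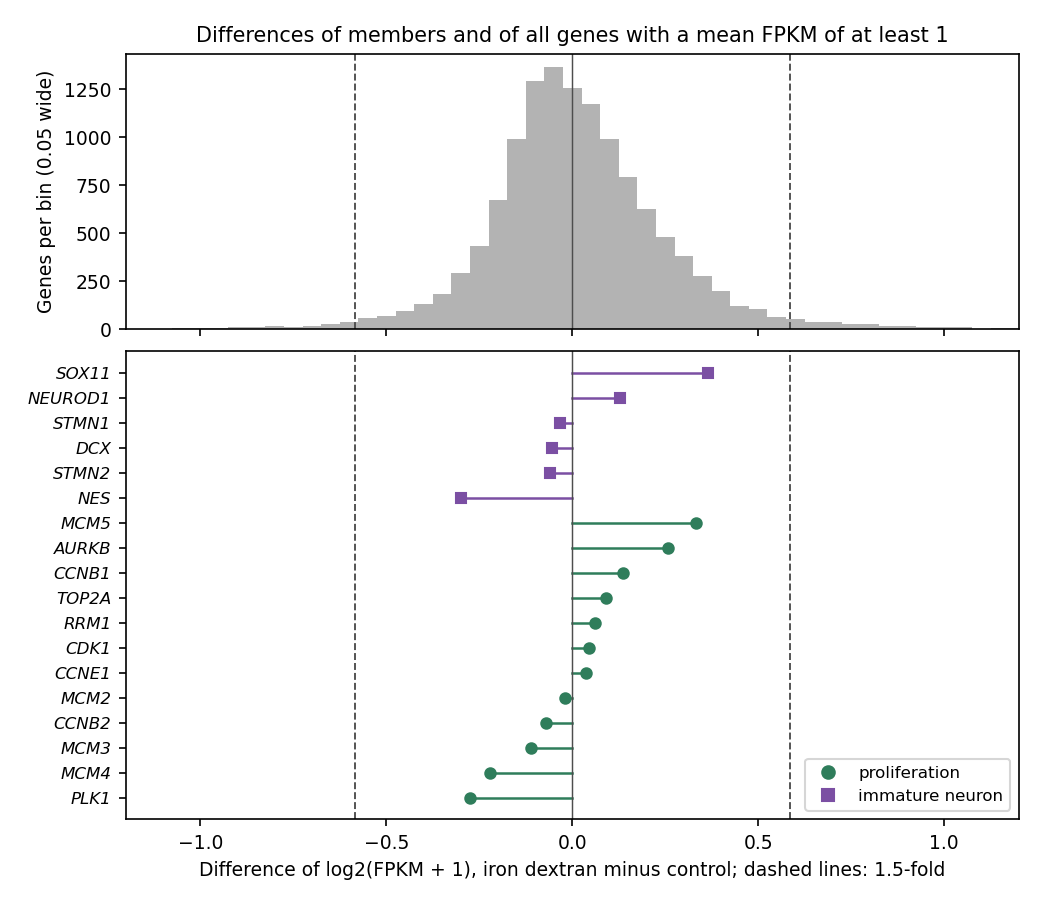
Top, the number of genes in each bin of the log2(FPKM + 1) difference, with control subtracted from iron dextran, over 12557 measured genes, with 1.5-fold as dashed lines. Bottom, the same difference for the 18 measured members, which run from -0.30 (NES) to 0.37 (SOX11), all between the dashed lines.

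The members with the wider differences were those of low level. SOX11, MCM5, AURKB, PLK1, NES and MCM4 each had a mean FPKM under 5, and RRM1, STMN1 and STMN2, the 3 above 10, differed by 0.062 or less in either direction. Over the whole table, 6.16% of 6366 genes with a mean FPKM from 1 to 10 were past 1.5-fold, against 1.66% of 6191 genes from 10 up. In the lower band the central 90% of genes ran from -0.41 to 0.52, which covers every measured member in that band. On the plain ratio scale the measured members lay between 0.7002 and 1.44, a range that held 91.0% of measured genes above 0 in both samples. The order of levels was nearly the same in both samples. Spearman's rho of the levels, as a description across genes of the same 2 libraries, was 0.94 over the 12 proliferation genes and 0.94 over the 6 immature neuron genes. In control MCM5 was the lowest measured proliferation gene, and in iron dextran PLK1 was.

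Wider lists of the cell cycle gave the same picture. On the log2(FPKM + 1) scale, none of 71 further measured genes of the cell cycle was past 1.5-fold. Of all measured genes 3.94% were, and of the 8403 with a symbol 105 were higher and 54 lower. Of these 71, 33 were above 0 and 38 below, with a median of -0.01. Of 24 measured genes of the G1 to S step and replication, with a median of -0.04, 10 were above 0 and 14 below. UHRF1, which carries DNA methylation through replication, had 4.29 FPKM in control against 5.68 in iron dextran. RAD51AP1, of recombination repair, had 1.24 and 0.786 FPKM, GINS3, a subunit of the replicative helicase, had 3.05 and 2.30, and CHAF1A, a histone chaperone of replication, had 4.91 and 3.89. Of 26 genes of G2 and M phase, with a median of 0.01, 13 were above 0 and 13 below. The kinetochore subunits SPC25 and NDC80, which belong to 1 complex, lay on opposite sides, with 1.46 and 0.944 FPKM for SPC25 and 1.09 and 1.53 for NDC80. CDC25B, a phosphatase that activates CDK1, had 3.63 and 2.69 FPKM, and GTSE1, a microtubule protein of mitosis, had 1.87 and 1.28. With a pseudocount of 0.01, RAD51AP1 (-0.65) and SPC25 (-0.62) were past 1.5-fold, where 7.61% of all measured genes were.

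Regulators around the members were read next. Of 21 CDKs, other cyclins, RB family genes and CDK inhibitors, with a median of -0.0052, 10 were above 0 and 11 below. CCNG2, an unusual cyclin linked to arrest, had 20.2 FPKM in control against 25.1 in iron dextran, and LIN54, of the complex that represses cell cycle genes in resting cells, had 7.27 and 8.90. CCNH, the cyclin of CDK7, had 12.9 and 14.8 FPKM, and the phosphatase CDKN3 had 3.73 and 3.19. The p53 target and growth arrest genes, a list that bears on CDKN1A, had a median of 0.05, with 6 of 10 above 0. BBC3, which promotes apoptosis, had 4.44 and 6.46 FPKM, and the stress protein SESN1 had 17.4 and 23.2. AEN, an apoptosis nuclease, had 7.42 and 6.43 FPKM, and CCNG1 had 35.1 and 39.4. None of the 10 was past 1.5-fold, where 3.94% of all measured genes were and a smaller share of those with a symbol.

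Genes of the neural lineage were also spread around 0. The 14 measured genes of neural stem cells and radial glia, many of them shared with astrocytes, had a median of -0.08, with 5 above 0 and 9 below. SOX3 had 1.66 FPKM in control against 1.13 in iron dextran, and SLC1A3, the glutamate transporter of astrocytes and radial glia, had 116 and 143. TNC, an extracellular matrix protein of the niche, had 0.995 and 1.34 FPKM, and PROM1, a membrane protein of progenitors, had 2.25 and 2.78. The 23 measured genes of neuroblasts and immature neurons had a median of 0.02, with 12 above 0 and 11 below. NFIB, a factor of hippocampal development, had 13.4 and 9.06 FPKM, a difference of -0.51. DLX1, a factor of interneurons and their precursors, had 3.26 and 4.75 FPKM, IGFBPL1, a marker of young granule neurons, had 5.50 and 7.75, and the stathmin STMN4 had 4.32 and 5.48. None of these 14 or 23 genes was past 1.5-fold, where 3.94% of all measured genes were and a smaller share of those with a symbol.

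**Figure D3:**
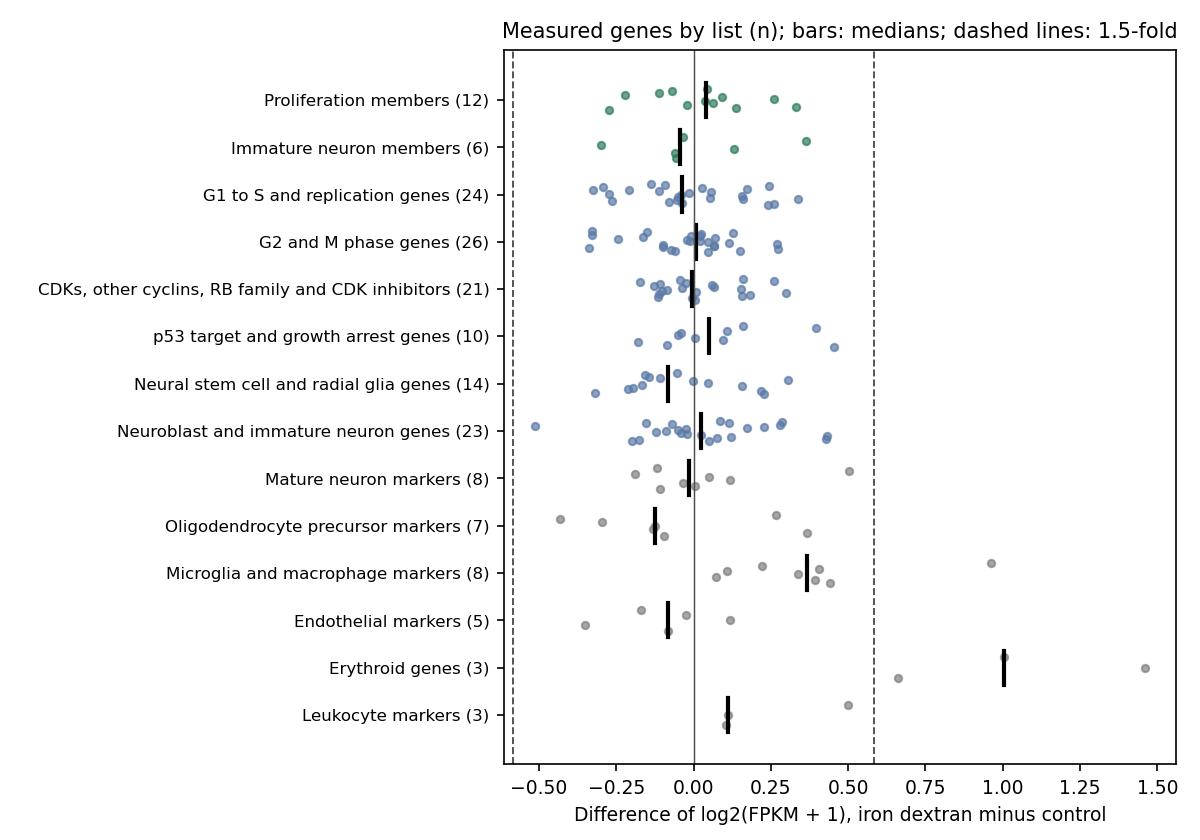
The log2(FPKM + 1) difference, with control subtracted from iron dextran, of each measured gene as a point, by list, with the number of genes in brackets, list medians as bars and 1.5-fold as dashed lines. The members and the 6 related lists lie between the dashed lines, and the points outside belong to microglia and erythroid genes.

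Markers of cell types that the tissue could hold were set beside these values. The 8 measured mature neuron markers had a median of -0.02, with 4 above 0 and none past 1.5-fold on the log2(FPKM + 1) scale. Their levels ran from CALB1, a calcium-binding protein of granule neurons and other neurons, at 0.802 FPKM in control against 1.56 in iron dextran (difference 0.50), to SNAP25, of synaptic vesicle release, at 1032 and 952. SYN1, a synaptic vesicle protein, had 269.7 and 236 FPKM, and MAP2, of dendritic microtubules, had 110.02 and 119. PROX1, which marks dentate granule neurons, had 0.761 and 0.858 FPKM, below the limit of measurement. Of the genes listed as oligodendrocyte precursor markers, 2 of 7 were above 0, with a median of -0.13. Their summed FPKM was 647 and 517, most of it from BCAS1 and OLIG1, so the sum says little about the other markers. PDGFRA had 4.54 and 6.13 FPKM and CSPG4 had 1.71 and 2.25, while BCAS1 had 294 and 218 and OLIG1 had 268 and 219. All 8 measured microglia and macrophage markers were above 0, with a median of 0.37 and a summed FPKM of 99.3 and 127, and P2RY12 (9.80 and 20.05 FPKM) was past 1.5-fold. All 3 measured erythroid genes were past 1.5-fold higher, with HBB at 183 and 506 FPKM. On this log2(FPKM + 1) scale 3.94% of all measured genes were past 1.5-fold, with 2.47% higher. Of the 8403 measured genes with a symbol, 105 were higher and 54 lower. The 5 endothelial markers had a median of -0.08 and a summed FPKM of 34.4 and 31.6, and the 3 leukocyte markers a median of 0.11. On the plain ratio scale, some low markers not counted above were past 1.5-fold. These were CALB1 (1.94), the microglia markers CSF1R (1.51) and CD68 (1.57), the leukocyte marker PTPRC (1.79) and the endothelial marker TEK (0.664). With a pseudocount of 0.01, 7.61% of all measured genes were past 1.5-fold. The part of these cell types in the members' values was not tested. In bulk tissue, fewer cells of a type and less RNA per cell cannot be told apart.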

How the data were processed

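RNA sequencing of 2 hippocampus samples, 1 control and 1 iron dextran, was analysed from a table of FPKM values that the authors deposited, with 1 column per sample, matched by the letter in the sample title. The submitters' processing notes name cutadapt 1.2.1, TopHat and the builds Sscrofa10.2 and susScr3. For the program behind the FPKM, the annotation, the use of strand and any pooling, nothing is given in the sources used here. Symbols came from a table that matched 11804 of 25322 IDs. No gene coordinates or sequences were used.

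Differences of log2(FPKM + 1) were computed with Python 3.11.15, pandas 2.3.3 and numpy 2.4.6, over genes whose mean FPKM reached 1. Members needed 1.5-fold to count. All members are named, with up to 4 genes per related list by largest difference; BUB1 and PROX1 lie below the limit, and PROX1 was named after its value was seen. Members and lists were chosen with earlier results of these data known. Depth is unknown. Over 690 low genes, the best fitting steps of the ratios put the iron dextran depth at 1.06 times control. Only 53.2% of the ratios lay near these steps, so this is a rough estimate. The code was run on simulated data with the same noise for every gene, which does not check the 1.5-fold calls of low genes. Alternatives were other pseudocounts, limits, scalings and a fold of 2.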

Additional observations from a re-analysis of the deposited data

How the results depend on the processing

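The counts past 1.5-fold were 0 for both groups under pseudocounts of 0.1 and 0.01, without a limit on low values, at a mean FPKM of at least 5, centred on the median, after TMM scaling (trimmed mean of M values, 30% of M and 5% of A trimmed per side), scaled to the same total and at 2-fold. With a pseudocount of 0.01 and no limit together, added after the data were seen, the proliferation count was 1 (BUB1). A median was taken as moved from 0.1 on the log2 scale, since no spread between replicates exists. The immature neuron median moved to 0.0738 with the same total, and the other medians moved by less. Of 19 members with a value, 5 changed sign under an alternative, in each case with the same total (CCNB2, MCM2, DCX, STMN1 and STMN2), and 14 kept it. The limit at 5 left 2 proliferation genes and 4 immature neuron genes. Depth limits the low members most, BUB1 above all. No paired analysis was possible because each group has 1 sample. Leaving out a replicate was not possible for the same reason.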

Other observations

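Other genes of cell division were read by gene name after the differences had been seen, so their choice follows their values. SOX genes were read in the same way. Of the 4 measured, SOX11 among them, 2 were above 0 and 2 below, with a median of -0.08. Of 13 centromere protein genes above 0, named by the prefix CENP, 10 were measured, with a median difference of -0.05, 4 above 0 and 6 below. CENPS, which acts at kinetochores and in DNA repair, had 15.8 FPKM in control against 8.85 in iron dextran, 1.78-fold lower. It was the 1 gene of the 10 past 1.5-fold, where 3.94% of all measured genes were. At its level, a mean FPKM of 12.3, the share was lower, 1.66% of all genes from 10 up. CENPP had 6.59 and 4.82 FPKM and CENPC, which binds centromeric nucleosomes, had 4.58 and 5.33.

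Of 5 measured histone genes, 4 were below 0. H1-3, a linker histone made for replication, had 19.3 FPKM in control against 6.21 in iron dextran. It was the 1 of the 5 past 1.5-fold, where 1.66% of all genes with a mean FPKM from 10 up were. H2BC5, a core histone, had 14.0 and 9.60 FPKM, H3-3A, a variant made outside replication, had 14.2 and 10.4, and the variants H2AZ1 and H2AZ2 had 178 and 166 FPKM and 49.2 and 53.2.

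Cell cycle genes below a mean FPKM of 1 were mixed in direction. Of 31 such genes in the 3 cell cycle lists, 18 had a ratio above 1 and 13 below. TTK, a spindle checkpoint kinase that acts with BUB1, had 0.0854 FPKM in control against 0.356 in iron dextran, and CDCA2 had 0.0764 and 0.183, while BUB1B had 0.827 and 0.739, CKAP2L 0.621 and 0.336 and CDC25A 0.784 and 0.480. Over 3058 genes with a mean FPKM from 0.1 to 1, the median ratio was 1.07, the quartiles were 0.759 and 1.56, and 53.9% lay above 1. The genes named in these paragraphs were picked with their values in view.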
